A study of Mus musculus with 8 samples.

Results

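The genes described here are 44 regulators of the cell division cycle: cyclins, cyclin-dependent kinases (CDKs), their inhibitors, the pocket proteins and E2F factors, replication licensing factors, mitotic kinases, and the p53 and MYC factors. They were chosen by symbol, all 44 were found among the 18094 genes of the expression table, and all 44 passed the filter on low values. Expression was measured by RNA-seq in the mouse embryonic stem cell (mESC) line E14Tg2A. Wild type (WT) cells carried unmodified CTCF, the DNA-binding protein that organizes chromatin loops. CTCF-K20R cells carried a CRISPR/Cas9 point mutation that replaces lysine 20 of CTCF with arginine. Both genotypes were sampled on day 0 as mESCs, kept on inactivated mouse embryo fibroblasts with LIF and 2i, and on day 4 as embryoid bodies (EBs), the aggregates formed in hanging drops in serum medium after LIF is withdrawn. Each genotype and day had 2 libraries, so there were 8 libraries in all. The mutant cells came from targeted colonies, and the sources used here do not say how many colonies went into the RNA libraries, so the genotype cannot be told apart from a difference between clones or cultures.

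Cyclins switch on CDKs in a fixed order. D-type cyclins with CDK4 and CDK6, then E-type cyclins with CDK2, phosphorylate the pocket proteins RB1, RBL1 and RBL2, which otherwise hold E2F factors and silence their targets. Released E2F drives the genes of DNA replication, and cyclins A and B with CDK1 later drive mitosis. Mouse ES cells are known for a short G1 phase and for high cyclin E with CDK2 activity, and G1 lengthens when they differentiate.

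Values are normalized read counts, which the authors scaled across all 8 libraries. The libraries summed to between 19412659 and 21311513. The value of 3 reads, taken as the limit of detection, was 2.43 to 3.44 normalized counts, and no member was at or under it in any library. Such limits cover counting error only. The WT pair of each day differed by less than sampling noise, with a mean squared difference of 0.314 (mESCs) and 0.278 (EBs) times the value expected for independently drawn reads, against 4.00 and 4.36 for the CTCF-K20R pairs. Each WT pair was therefore counted as 1 sample, and every error given here comes from the 2 CTCF-K20R libraries of each day. The study's methods call the 2 libraries of a group biological replicates, and counting each WT pair once departs from that description. The labels do not say which cultures the libraries came from, so the p-values measure the spread between these samples, which may be technical. Ctcf itself differed by 0.19 on the log2 scale on either day (adjusted p = 0.0268 on day 4 and 0.055 on day 0), and the mutated base cannot be seen in gene counts.

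The EBs of the genotypes also differed in marker genes. The summed level of 10 primitive streak and mesoderm markers ranged from 59360 to 59721 normalized counts over WT EBs and from 2449 to 2556 over CTCF-K20R EBs. In the CTCF-K20R EBs Msgn1 was at 0, while Eomes had 1845 and 1777 and T had 520.3 and 514.6. The 10 pluripotency markers summed to 16192 to 16341 in WT EBs, to 32046 to 32710 in CTCF-K20R EBs and to 119599 to 124425 in the mESC libraries, in which the lowest value of Pou5f1, Nanog or Sox2 was 12811. Most of the EB sums was Pou5f1, with 12595 and 12696 in WT and 21940 and 21590 in CTCF-K20R. Of the 9 tested, 7 were higher in CTCF-K20R EBs and 2 lower by the rule given below, against 21.5% and 18.6% of all genes. The lower ones were Klf4 (105.8 and 104.5 in WT against 44.27 and 30.78) and Tbx3 (577.6 and 617.4 against 112.6 and 232.7). The 13 fibroblast markers in the table summed to 2366 and 2334 in WT EBs and to 1525 and 1517 in CTCF-K20R EBs. In mESCs they summed to 1006 to 1180, with Dcn and Postn at 0 in all 4 mESC libraries. Other markers of this list were present in mESCs, with Col5a1 at 397.0 to 434.8. Thy1 had 465.4 and 458.5 in WT mESCs and 104.2 and 103.3 in CTCF-K20R mESCs, and Pdgfrb had 130.8 and 137.5 against 353.3 and 368.5. On day 4, 3 of the 11 fibroblast markers tested rose and 3 fell by the same rule, beside the same 21.5% and 18.6% of all genes. With 0.1 instead of 1 added to the values before the log2, 1 of them rose and 3 fell. The part of cell composition in the differences below was not tested, and in these bulk samples fewer cells of a type and less RNA per cell cannot be told apart.

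Log2 fold changes were computed on log2(value + 1), which understates the change of low genes, and were tested with limma over 15767 genes whose mean over the libraries reached 10 normalized counts. A gene is said to have risen or fallen at a Benjamini-Hochberg adjusted p under 0.05, and it is called a DEG when the log2 fold change was also above 1 or below -1. On day 4, 14 of the 44 members were higher and 11 lower in CTCF-K20R EBs, while 21.5% of all genes tested were called higher and 18.6% lower. The share of members called was 56.8%, against 40.1% of all genes. Their median log2 fold change was 0.08, beside 0.009 for all genes, so the members did not move as a block. Higher DEGs were Cdkn2a, Rb1, E2f4 and Rbl2, which makes 4 of 44 against 6.89% of all genes, and lower DEGs were Ccnd2 and E2f5, 2 of 44 against 8.65%. In GRCm38, Ccnd2 lies at chr6:127125162-127152193, E2f5 at chr3:14578641-14606309, Rb1 at chr14:73183673-73325822, Cdkn2a at chr4:89274471-89294653, E2f4 at chr8:105297663-105305370 and Rbl2 at chr8:91070057-91123844. On day 0, 6 members were higher and 4 lower, while 7.83% of all genes were called higher and 7.57% lower. Ccnd2 was the 1 lower DEG among the members on day 0, and 0 were higher DEGs, while 2.6% and 1.19% of all genes were lower and higher DEGs. The difference between the genotype effects of the days (the interaction) passed in 12 members with a positive and 8 with a negative sign, against 14.7% and 12.0% of all genes.

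**Figure D1:**
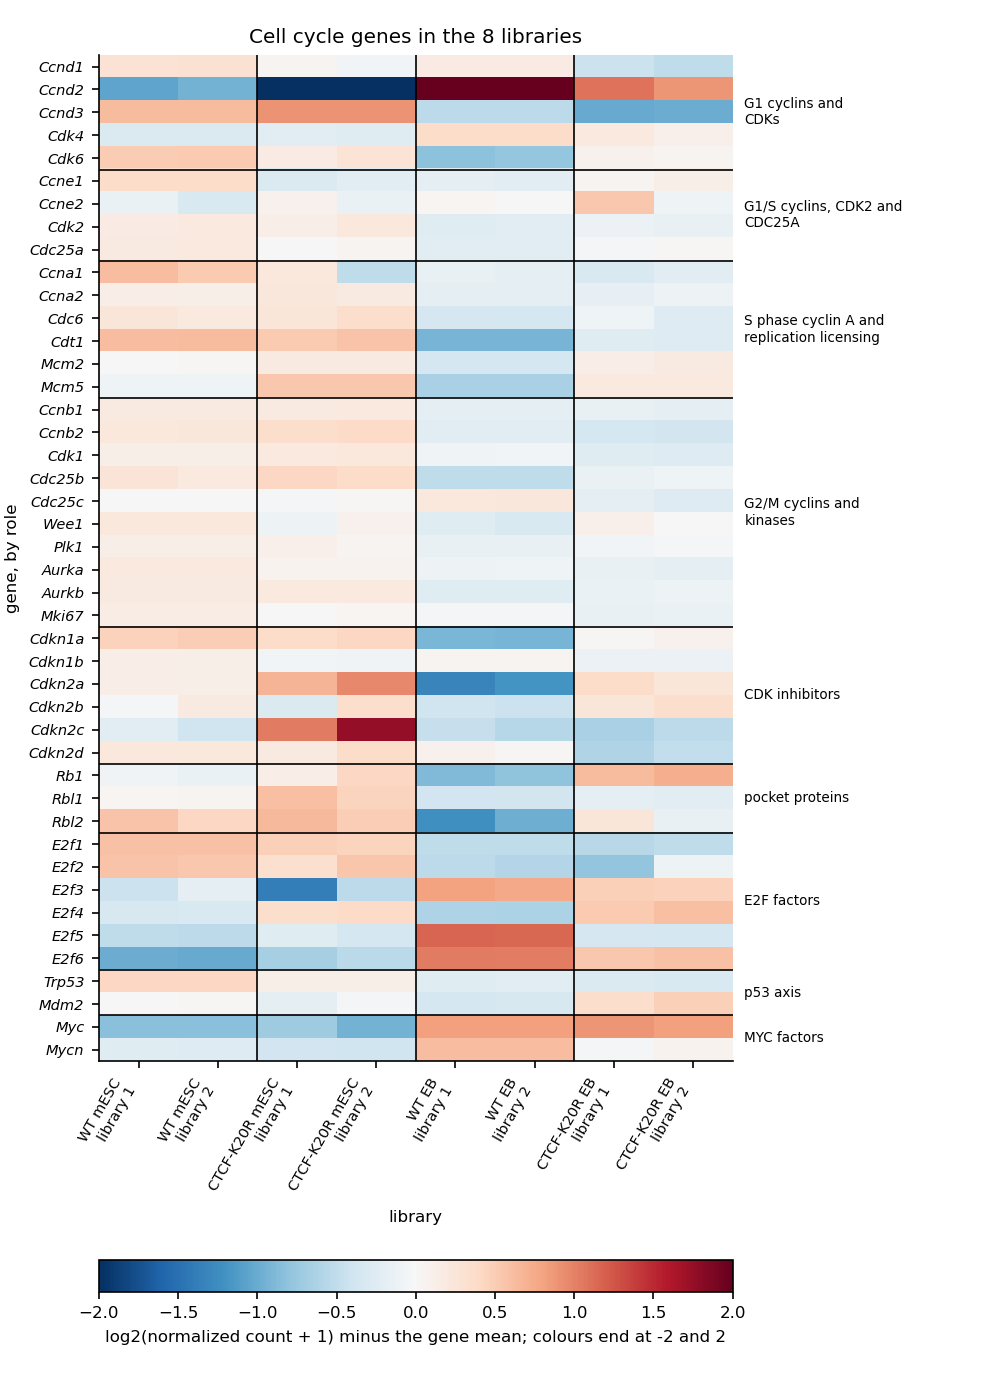
Each row is a member, ordered by role, and each column is a library. The colour is log2(normalized count + 1) minus the mean of the gene over the 8 libraries, with colours ending at -2 and 2. The WT and CTCF-K20R EB columns differ most in Ccnd2, E2f5, Rb1, Cdkn2a, E2f4 and Rbl2, while the rows of the G2/M kinases are pale in all columns.

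**Figure D2:**
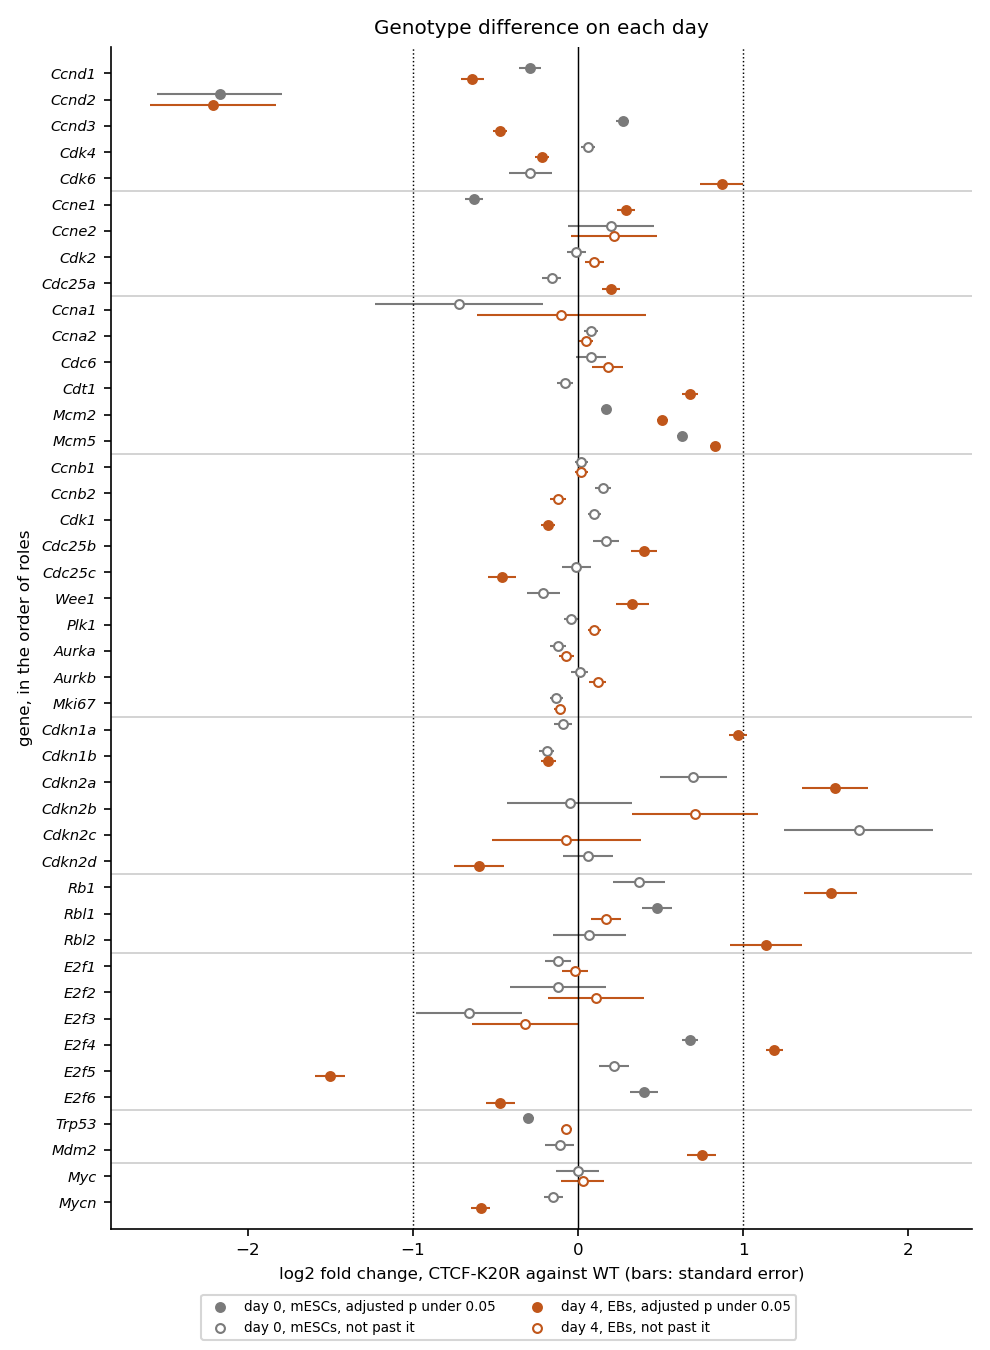
Points are log2 fold changes of CTCF-K20R against WT on day 0 (grey) and day 4 (orange), bars are standard errors, filled points passed an adjusted p under 0.05, and dotted lines mark -1 and 1. Ccne1, Ccnd3 and E2f6 lie on opposite sides of 0 on the days, with filled points on both.

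The day 4 calls rested on 2 mutant libraries. With CTCF-K20R EB library 1 left out, 12 of the 25 calls remained, and with library 2 left out, 14 remained. Ccnd2, Cdk6, Ccne1, Cdc25a, Cdk1, Cdc25b, Cdc25c, Wee1, Cdkn1b, Cdkn2d and E2f6 lost the call without either library, and Cdkn2a and Rbl2 lost it without library 1. The calls on Ccnd1, Ccnd3, Cdt1, Mcm2, Mcm5, Cdkn1a, Rb1, E2f4, E2f5, Mdm2 and Mycn were kept under every alternative tried. Of the 10 day 0 calls, 4 and 3 remained without mESC library 1 and 2 of CTCF-K20R, and 0 remained without either EB library, which enters the common estimate of the spread. Of the 20 interaction calls, 7 remained without either EB library, and those on Ccnd3, Ccne1, Cdt1, Cdkn1a and E2f5 were kept under every alternative tried.

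The G1 cyclins and CDKs receive mitogen signals at the start of the cycle. On day 4, 4 of these 5 genes fell and 1 rose, against 18.6% of all genes lower and 21.5% higher. Ccnd2, which encodes cyclin D2, stood at 687.1 and 681.5 normalized counts in WT EBs and at 157.5 and 138.0 in CTCF-K20R EBs. The mutant libraries were far below both WT libraries, and the log2 fold change was -2.21 (standard error 0.38, adjusted p = 0.00777). In mESCs Ccnd2 was near the bottom of the member list, with 35.07 and 37.81 in WT and 9.702 and 5.493 in CTCF-K20R, again without overlap (log2 fold change -2.17, adjusted p = 0.021). Its estimated rise from day 0 to day 4 was 4.19 in WT and 4.15 in CTCF-K20R on the log2 scale. The interaction was -0.04 (standard error 0.54, adjusted p = 0.966). Over the alternatives tried, the CTCF-K20R rise ranged from 3.62 to 4.52 and the interaction from -0.44 to 0.32. The CTCF-K20R mESC values were not far above the limits of detection of those libraries, 3.23 and 3.32.

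Ccnd1, the gene of cyclin D1, was at 3047 and 3040 in WT EBs and at 2018 and 1899 in CTCF-K20R EBs. It fell by 0.64 on the log2 scale (standard error 0.068, adjusted p = 0.00147), and on day 0 it was lower by a smaller amount (log2 fold change -0.29, adjusted p = 0.0447). Ccnd3, which encodes cyclin D3, had 2521 and 2516 in WT EBs against 1803 and 1822 in CTCF-K20R EBs (log2 fold change -0.47, adjusted p = 0.000733). In mESCs the order was the opposite, with 5613 and 5626 in WT and 6741 and 6794 in CTCF-K20R (0.27, adjusted p = 0.0147), and the interaction was -0.74 (standard error 0.059, adjusted p = 0.00111). The D-type cyclins thus all fell on day 4, whereas on day 0 Ccnd3 rose and the other pair fell.

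Divided by transcript length, the D-type cyclins summed to 3555 normalized counts per kb in WT mESCs, 3932 in CTCF-K20R mESCs, 2114 in WT EBs and 1405 in CTCF-K20R EBs. Ccnd3 held most of that sum in every library, 74.8% in WT mESCs and 56.4% in WT EBs. The share of Ccnd2 was 5.11% in WT EBs and 1.66% in CTCF-K20R EBs. Part of the Ccnd1 transcript is also covered by LTO1 on the opposite strand, and 77.7% of the 31-base words of Ccnd1 were found in no other gene. How the reads were assigned by strand is not given in the sources used here.

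Cdk4, the catalytic partner of the D-type cyclins, was the highest member per kb in all 4 groups. It fell from 16355 and 16363 in WT EBs to 14412 and 13607 in CTCF-K20R EBs, which is 0.22 on the log2 scale (adjusted p = 0.0102). Cdk6, the related kinase, went the other way. Its values were 151.3 and 156.6 in WT EBs and 284.0 and 280.4 in CTCF-K20R EBs (log2 fold change 0.87, standard error 0.13, adjusted p = 0.00484), and on day 0 they were 381.5 and 385.3 against 302.6 and 323.4 (-0.29, adjusted p = 0.2). The interaction of Cdk6 was 1.16 (adjusted p = 0.00977). Per kb, Cdk6 made up 0.167% of the sum of both kinases in WT EBs and 0.358% in CTCF-K20R EBs. Cdk4 overlaps Tspan31 on the opposite strand, and 80.5% of the words of Cdk4 were unique to it.

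**Figure D3:**
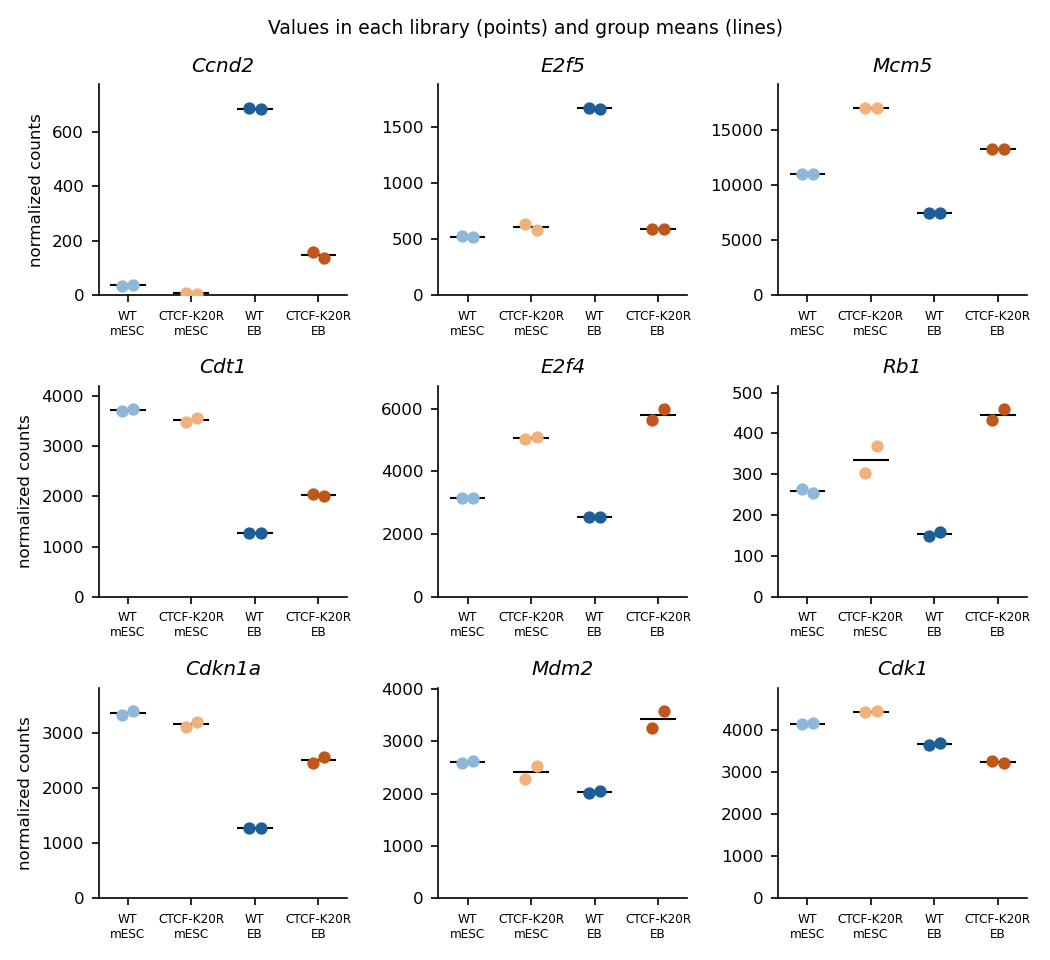
Normalized counts of 9 members on linear axes that start at 0, with each library as a point and each group mean as a line. In Ccnd2 and E2f5 both WT EB points lie above both CTCF-K20R EB points, in Mcm5, Cdt1, E2f4, Rb1, Cdkn1a and Mdm2 they lie below, and in Cdk1 the groups differ 1.13-fold.

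The G1/S genes carry cells into S phase. Ccne1, which encodes cyclin E1, was lower in CTCF-K20R mESCs and higher in CTCF-K20R EBs. On day 0 it had 3202 and 3194 in WT and 2032 and 2108 in CTCF-K20R (log2 fold change -0.63, standard error 0.054, adjusted p = 0.00276). On day 4 the values were 2164 and 2144 in WT and 2579 and 2676 in CTCF-K20R (0.29, adjusted p = 0.0103). The interaction was 0.91 (standard error 0.077, adjusted p = 0.00127), and it passed under every alternative tried. Ccne1 fell by 0.57 from WT mESCs to WT EBs, a change with no replicate check, and rose by 0.34 from CTCF-K20R mESCs to EBs (adjusted p = 0.00143).

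Cdc25a, the phosphatase that activates CDK2, rose from 1838 and 1832 in WT EBs to 2068 and 2155 in CTCF-K20R EBs (0.20, adjusted p = 0.0345). Its interaction was 0.36 (adjusted p = 0.0247). Cdk2 had 1904 and 1923 in WT EBs and 2074 and 2037 in CTCF-K20R EBs, and the difference of 0.10 did not pass (adjusted p = 0.207). Ccne2, the gene of cyclin E2, had 605.8 and 587.4 in WT EBs, between the CTCF-K20R libraries at 865.9 and 556.5, and its difference of 0.22 had a standard error of 0.26. Ccne2 overlaps Ints8 on the opposite strand, and 84.4% of its words were unique to it.

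Replication licensing loads the MCM helicase on origins with the help of CDC6 and CDT1. Of the 6 S phase genes, 3 rose on day 4 and 3 did not pass, against 21.5% of all genes higher. Mcm5, a helicase subunit, had 7476 and 7484 in WT EBs and 13298 in each CTCF-K20R EB library (log2 fold change 0.83, standard error 0.029, adjusted p = 5.02e-05). It was also higher in mESCs, with 11002 and 10978 in WT and 16946 and 16982 in CTCF-K20R (0.63, adjusted p = 0.000958). Mcm2, another subunit, rose from 7983 and 7957 to 11223 and 11533 on day 4 (0.51, adjusted p = 0.000279), and by less on day 0 (0.17, adjusted p = 0.0294). Both helicase genes were thus higher in the mutant at both stages, with interactions of 0.20 and 0.35 for Mcm5 and Mcm2. The interaction of Mcm5 was -0.04 with quantile normalization (adjusted p = 0.467), and it lost the call when any of the 4 CTCF-K20R libraries was left out.

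Cdt1, the licensing factor, was different in that its genotype difference passed on day 4 only and the interaction also passed. Its values were 1272 and 1267 in WT EBs and 2047 and 2017 in CTCF-K20R EBs (log2 fold change 0.68, standard error 0.049, adjusted p = 0.000391), against 3709 and 3734 and then 3478 and 3563 in mESCs (-0.08, adjusted p = 0.324). The interaction was 0.76 (adjusted p = 0.0016). Cdc6 was at 1313 and 1296 in WT EBs and 1557 and 1393 in CTCF-K20R EBs (0.18, adjusted p = 0.184). Ccna2, the cyclin of S phase, differed by 0.05 on day 4 (standard error 0.044, adjusted p = 0.383), and Ccna1, the germ line cyclin A, stayed between 8.8 and 20.38 normalized counts in all libraries.

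Some promoters of these genes hold letters of the element that E2F factors are known to bind. Promoters of 250 bases before and 50 after the start were taken from RefSeq (GRCm38.p6) for 33 of the 44 members. The letters TTTGGCGC or TTTCCCGC, on either strand, were found in 9 of the 33 (27.3%) and in 1.8% of 27025 genes. The 30-base windows of 5 members from the G1/S and S phase groups are shown because they cover Mcm5 and Cdt1, which rose on day 4, beside members with smaller differences, with the E2F letters or their reverse complement in capitals:
Mcm5: caagaactttcGCGCCAAAacgtccagcct
Cdt1: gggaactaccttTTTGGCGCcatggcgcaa
Cdc25a: ggtgaattccgTTTGGCGCcaactaggaaa
Cdc6: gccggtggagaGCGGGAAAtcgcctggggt
Cdk2: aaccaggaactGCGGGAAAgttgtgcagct
The windows lie at chr8:75109349-75109378 (Mcm5, plus strand), chr8:122568035-122568064 (Cdt1, plus), chr9:109875501-109875530 (Cdc25a, plus), chr11:98908002-98908031 (Cdc6, plus) and chr10:128705173-128705202 (Cdk2, minus). Mcm5, Cdt1 and Cdc25a rose on day 4, while Cdc6 and Cdk2 did not pass, so members with these letters differed in their response. A match is a run of letters and not a measured binding site. The other members with E2F letters were Cdkn2a, E2f2, E2f3 and Mycn. On day 4 Cdkn2a rose (log2 fold change 1.56), Mycn fell (-0.59), and E2f2 and E2f3 did not pass.

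The G2/M cyclins and kinases had small log2 fold changes between the genotypes. Of the 10, 2 rose and 2 fell on day 4, while 21.5% of all genes were called higher and 18.6% lower. The log2 fold changes of the 10 ranged from -0.46 to 0.40 with a median of -0.02. On day 0 the range was -0.21 to 0.17, with adjusted p of at least 0.0687. Cdk1, the kinase of mitosis, had 3644 and 3675 in WT EBs and 3257 and 3201 in CTCF-K20R EBs, a fall of 0.18 on the log2 scale (standard error 0.041, adjusted p = 0.0194). Cdc25c, a phosphatase that activates CDK1, fell from 778.5 and 787.8 to 583.2 and 558.5 (-0.46, adjusted p = 0.0104). Its relative Cdc25b rose from 515.0 and 518.4 to 672.2 and 689.5 (0.40, adjusted p = 0.0126). Wee1, the kinase that holds CDK1 inactive, was at 944.2 and 908.1 in WT EBs and 1204 and 1128 in CTCF-K20R EBs (0.33, adjusted p = 0.0476), so its libraries did not overlap but the call was close to the threshold.

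The other 6 genes of mitosis did not pass on day 4. Ccnb1, which encodes cyclin B1, had 7399 and 7426 in WT EBs and 7651 and 7373 in CTCF-K20R EBs (log2 fold change 0.02, standard error 0.038, adjusted p = 0.719), and with quantile normalization the difference was -0.13 (adjusted p = 0.0337). A pseudogene shares sequence with Ccnb1, and 72.2% of its words were unique. Ccnb2, the gene of cyclin B2, had a log2 fold change of -0.12 (adjusted p = 0.0936), although its interaction passed at -0.27 (adjusted p = 0.0378). Plk1, Aurka and Aurkb, kinases of the mitotic spindle, had log2 fold changes of 0.10, -0.07 and 0.12, with adjusted p of 0.11, 0.293 and 0.116. Mki67, the proliferation marker Ki-67, had 6716 and 6761 in WT EBs and 6216 and 6287 in CTCF-K20R EBs (-0.11, adjusted p = 0.0656). Of the words of Plk1, 81.3% were unique, and the others were shared mainly with Plk-ps1.

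Mitotic genes are known for another promoter element, the CHR, with the letters TTTGAA. It was found on either strand in 11 of the 33 member promoters (33.3%), among them Aurka, Ccnb2, Cdk1, Mki67 and Plk1, and in 20.2% of 27025 genes, so this short run of letters is common. The windows are shown for these 5 genes, whose log2 fold changes on day 4 lay between -0.18 and 0.10, with the CHR letters in capitals:
Cdk1: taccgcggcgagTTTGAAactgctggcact
Ccnb2: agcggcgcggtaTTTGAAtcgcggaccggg
Aurka: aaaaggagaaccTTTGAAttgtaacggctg
Plk1: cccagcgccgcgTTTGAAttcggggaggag
Mki67: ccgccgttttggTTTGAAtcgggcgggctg
They lie at chr10:69352910-69352939 (Cdk1, minus strand), chr9:70421533-70421562 (Ccnb2, minus), chr2:172370521-172370550 (Aurka, minus), chr7:122159453-122159482 (Plk1, plus) and chr7:135716460-135716489 (Mki67, minus). The other members with CHR letters were Cdkn2b, E2f2, E2f3, Mcm2, Mycn and Rbl2, and of all 11 Mcm2 and Rbl2 rose on day 4 while Cdk1 and Mycn fell.

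The CDK inhibitors did not move together. On day 4, 2 of the 6 rose, 2 fell and 2 did not pass, against 21.5% of all genes higher and 18.6% lower. Cdkn1a, which encodes p21, had 1276 and 1266 in WT EBs and 2445 and 2555 in CTCF-K20R EBs, a 1.97-fold difference (log2 fold change 0.97, standard error 0.054, adjusted p = 0.000175). In mESCs it was at 3315 and 3397 in WT and 3106 and 3198 in CTCF-K20R (-0.09, adjusted p = 0.315), and the interaction was 1.07 (adjusted p = 0.00084). From day 0 to day 4 it changed by -1.40 in WT and by -0.33 in CTCF-K20R on the log2 scale, so the genotypes were close in mESCs and apart in EBs.

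Cdkn2a, whose locus encodes p16INK4a and p19ARF, which a gene count cannot separate, had 56.64 and 62.17 in WT EBs and 185.4 and 169.9 in CTCF-K20R EBs. Its log2 fold change of 1.56 was the largest rise among the members (standard error 0.20, adjusted p = 0.00282), and without CTCF-K20R EB library 1 the adjusted p was 0.0525. In mESCs the values were 158.2 and 156.2 against 231.5 and 281.3 (0.70, adjusted p = 0.0773). Cdkn2b, the neighbouring gene of p15INK4b, was at 31.32 and 30.47 in WT EBs and 49.4 and 53.26 in CTCF-K20R EBs, and its difference of 0.71 (standard error 0.38, adjusted p = 0.195) did not pass.

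Cdkn2d, which encodes p19INK4d, fell from 286.2 and 273.3 to 177.0 and 190.7 on day 4 (log2 fold change -0.60, adjusted p = 0.0267). Cdkn1b, the gene of p27, fell from 2724 and 2718 to 2397 and 2400 (-0.18, adjusted p = 0.0267), with a like value of -0.19 on day 0 that missed the threshold (adjusted p = 0.0504). Cdkn2c, which encodes p18INK4c, was between 14.41 and 16.62 in all EB libraries. In mESCs it had 19.79 and 17.3 in WT and 48.43 and 80.66 in CTCF-K20R, where the mutant libraries were higher but far apart (1.70, standard error 0.45, adjusted p = 0.0598).

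Of the 3 pocket protein genes, 2 rose on day 4 and 1 did not pass, against 21.5% of all genes higher. Rb1, the retinoblastoma gene, had 149.2 and 158.3 in WT EBs and 432.6 and 458.9 in CTCF-K20R EBs, a 2.89-fold difference (log2 fold change 1.53, standard error 0.16, adjusted p = 0.00142). On day 0 it was at 262.9 and 254.1 against 302.9 and 368.4 (0.37, adjusted p = 0.19), and the interaction was 1.16 (adjusted p = 0.0183). Rbl2, which encodes p130, was at 78.23 and 92.98 in WT EBs and 218.4 and 165.5 in CTCF-K20R EBs (1.14, standard error 0.22, adjusted p = 0.0107). Rbl1, the gene of p107, did not pass on day 4 (0.17, adjusted p = 0.181) and rose on day 0, from 936.6 and 949.1 to 1380 and 1245 (0.48, adjusted p = 0.0247).

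Per kb, Rbl1 was the most abundant pocket protein gene in every library. The share of Rb1 in the family sum was 18.4% in WT mESCs, 18.2% in CTCF-K20R mESCs, 17.0% in WT EBs and 32.2% in CTCF-K20R EBs. Rb1 and Rbl2 overlap genes on the opposite strand, Rcbtb2 and Gm45464 among them, and 86.8% and 81.4% of their words were unique.

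**Figure D4:**
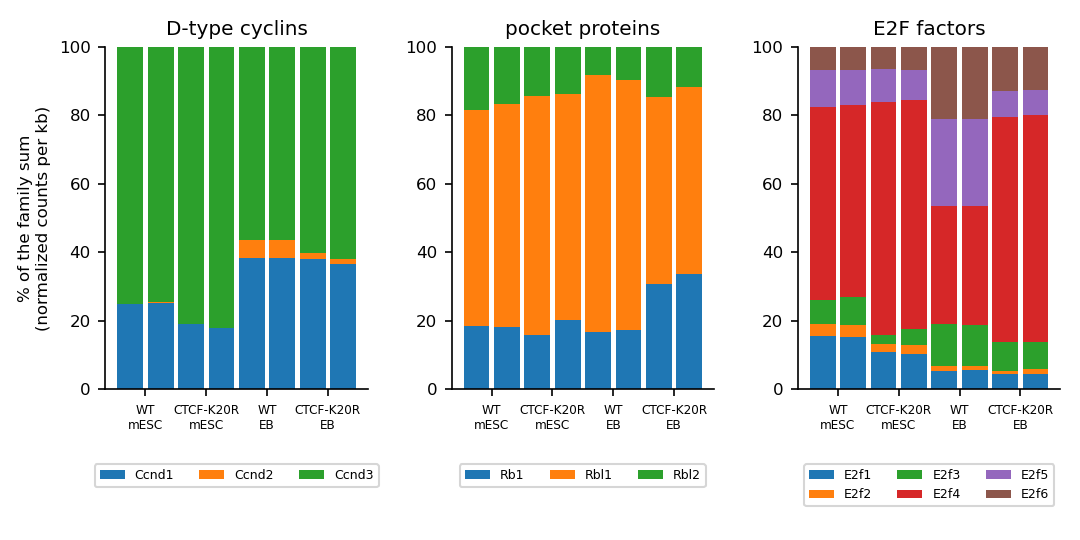
Stacked bars give the share of each gene in the summed level of its family, in normalized counts per kb of transcript, for the 8 libraries. Rb1 takes 32.2% of the pocket protein sum in CTCF-K20R EBs against 17.0% in WT EBs, and E2f4 takes 66.0% of the E2F sum against 34.6%.

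Among the E2F factors, E2f4 and E2f5 moved apart. Both encode repressor E2Fs that work with the pocket proteins. E2f4 had 2553 and 2535 in WT EBs and 5647 and 5980 in CTCF-K20R EBs (log2 fold change 1.19, standard error 0.05, adjusted p = 8.74e-05). It was also higher in mESCs, at 3153 and 3161 against 5024 and 5105 (0.68, adjusted p = 0.00186), and the interaction was 0.51 (adjusted p = 0.00613). E2f5 had 1666 and 1659 in WT EBs and 587.6 and 586.7 in CTCF-K20R EBs, a fall of 1.5 on the log2 scale (standard error 0.091, adjusted p = 0.000228).

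In mESCs the E2f5 values were 527.1 and 516.9 in WT and 632.7 and 582.5 in CTCF-K20R (0.22, adjusted p = 0.173), so the CTCF-K20R EBs stood near the mESC level. E2f5 changed by 1.67 from day 0 to day 4 in WT and by -0.05 in CTCF-K20R, and its interaction of -1.72 (standard error 0.13, adjusted p = 0.000946) was the largest negative one that passed among the members. E2f6, a repressor that works without pocket proteins, changed direction. It was at 1892 and 1875 in WT EBs against 1342 and 1382 in CTCF-K20R EBs (-0.47, adjusted p = 0.00948), and at 462.2 and 458.4 against 579.4 and 635.0 in mESCs (0.40, adjusted p = 0.0367).

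The activator E2Fs did not pass on either day. E2f1 had a log2 fold change of -0.02 on day 4 (standard error 0.078), with 557.0 and 559.4 in WT and 541.4 and 559.2 in CTCF-K20R. E2f2 was at 221.1 and 209.8 in WT EBs, between the CTCF-K20R libraries at 183.0 and 295.9. E2f3 had 2100 and 2030 in WT EBs and 1657 and 1644 in CTCF-K20R EBs, and its difference of -0.32 had a standard error of 0.32, since its CTCF-K20R mESC libraries were far apart at 457.1 and 832.6. Per kb, E2f4 held 34.6% of the E2F sum in WT EBs and 66.0% in CTCF-K20R EBs, and E2f5 held 25.3% and 7.47%.

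Trp53 encodes p53, which activates Cdkn1a, and Mdm2, itself a p53 target, encodes the ligase that degrades p53. Trp53 fell in mESCs, from 8283 and 8301 in WT to 6733 and 6773 in CTCF-K20R (log2 fold change -0.30, standard error 0.035, adjusted p = 0.00676). On day 4 it was at 5286 and 5306 against 5078 and 5041 (-0.07, adjusted p = 0.191). Mdm2 was at 2576 and 2614 against 2275 and 2535 in mESCs (-0.11, adjusted p = 0.445), and it rose in EBs from 2008 and 2052 to 3254 and 3578 (0.75, standard error 0.089, adjusted p = 0.00208). Its interaction was 0.86 (adjusted p = 0.00726). Trp53 shares sequence with a pseudogene, and 89.8% of its words were unique.

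Cdkn1a and Mdm2 were read beside a list of 28 other p53 target genes, of which 27 could be tested. On day 4, 19 of the 27 rose and 2 fell, against 21.5% and 18.6% of all genes, and the median of the list was 0.74 (log2). On day 0, 12 fell and 15 did not pass, against 7.57% of all genes lower, with a median of -0.37. The interaction passed with a positive sign in 21, against 14.7% of all genes, with a median of 1.01. Of the 12 that were lower on day 0, 8 were higher on day 4 (66.7%), while of all 1194 genes lower on day 0, 354 (29.6%) were.

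The largest rises on day 4 among listed targets with a mean of at least 100 were those of Trp73, a p53 relative (2.03, adjusted p = 0.00763), and Bbc3, the apoptosis gene Puma (1.49, adjusted p = 0.000693). Bbc3 had 451.6 and 450.8 in WT EBs and 1188 and 1354 in CTCF-K20R EBs. Pmaip1, the apoptosis gene Noxa, went against the list, with 3030 and 3044 in WT EBs and 834.2 and 875.4 in CTCF-K20R EBs (-1.83, adjusted p = 0.000135), and Perp also fell (-1.15, adjusted p = 0.00347). Gadd45a, a DNA damage gene, was lower on day 0 (-0.91, adjusted p = 0.0196) and higher on day 4 (1.17, adjusted p = 0.00319). The number of targets that rose on day 4 was between 12 and 20 over all alternatives, with 12 when either CTCF-K20R EB library was left out. The number that fell on day 0 was between 0 and 19, with 0 when either EB library of CTCF-K20R was left out and 6 and 7 when mESC library 1 and 2 was.

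**Figure D5:**
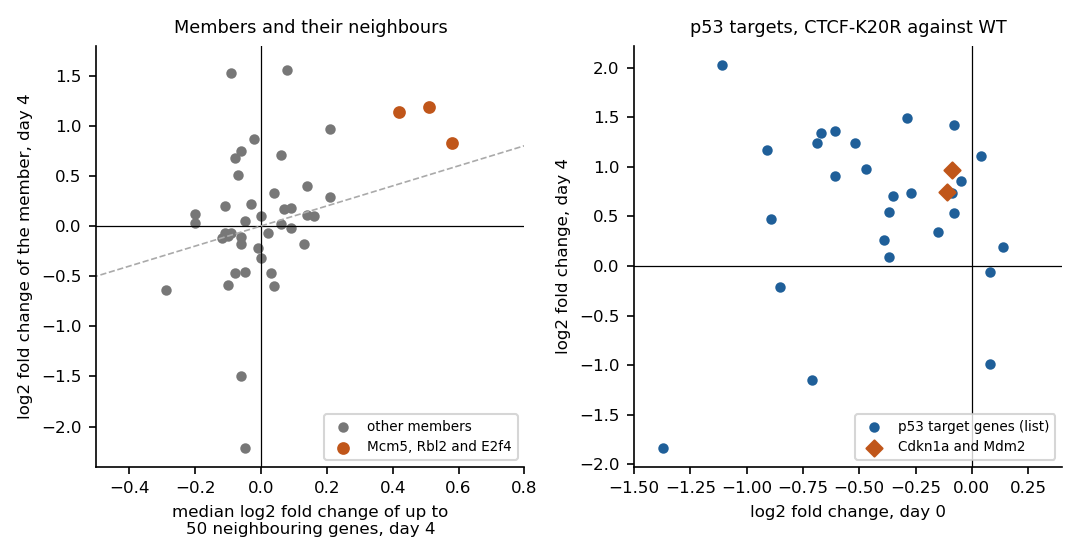
Left, the day 4 log2 fold change of each member against the median of up to 50 neighbouring genes, with equality as the dashed line, on axes of different scale. Right, the log2 fold changes of 27 p53 targets on day 0 and day 4, in which Cdkn1a and Mdm2 (diamonds) lie at 0.97 and 0.75 on day 4 with many of the listed targets.

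The MYC factors drive growth and cell cycle entry. Mycn was at 3343 and 3371 in WT EBs and 2163 and 2286 in CTCF-K20R EBs (log2 fold change -0.59, standard error 0.058, adjusted p = 0.00102), and in mESCs the difference was -0.15 (adjusted p = 0.151). Myc had 916.6 and 910.2 in WT EBs and 953.5 and 915.9 in CTCF-K20R EBs (0.03, adjusted p = 0.862). It changed from day 0 to day 4 by 1.66 in WT and 1.69 in CTCF-K20R. Per kb, the sum of the pair was 1925 in WT EBs and 1517 in CTCF-K20R EBs, with Mycn at 65.2% and 54.8% of it.

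Over the 4 days of differentiation, 25 of the 44 members fell and 10 rose in the CTCF-K20R cells, against 28.6% and 29.9% of all genes. This comparison of 2 libraries with 2 shares the EB and mESC libraries of the genotype comparisons. With either EB library or either mESC library of CTCF-K20R left out, 26 to 30 of the 35 calls remained. Lower DEGs were Ccnd3 (-1.90) and Cdkn2c (-1.98), 2 of 44 against 11.6%, and higher DEGs were Ccnd2 (4.15), Myc (1.69), E2f3 (1.42) and E2f6 (1.17), 4 of 44 against 14.5%. Of the 10 G2/M genes 9 fell, by amounts between 0.12 for Plk1 and 0.72 for Ccnb2. Wee1 was the exception (0.06, adjusted p = 0.54).

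In WT cells, where the change sets 1 sample against 1 and has no test, 5 members were higher by over 1 on the log2 scale and 8 lower, beside 18.9% and 16.3% of all genes. The higher ones were Ccnd2 (4.19), E2f6 (2.03), E2f5 (1.67), Myc (1.66) and E2f3 (1.08). The lower ones were Rbl2 (-1.59), Cdt1 (-1.55), Cdkn1a (-1.40), Cdkn2a (-1.39), Cdk6 (-1.31), Ccnd3 (-1.16), E2f2 (-1.11) and E2f1 (-1.1). In CTCF-K20R cells the lower ones changed by -0.52 (Rbl2), -0.79 (Cdt1), -0.33 (Cdkn1a), -0.52 (Cdkn2a), -0.15 (Cdk6), -1.90 (Ccnd3), -0.89 (E2f2) and -0.99 (E2f1). The higher ones changed by 4.15 (Ccnd2), 1.17 (E2f6), -0.05 (E2f5), 1.69 (Myc) and 1.42 (E2f3). Ccnd3, Myc and E2f3 were farther from 0 than in WT and the others nearer, with Myc and Ccnd2 almost unchanged. The members were picked by their WT change, a choice that favours smaller values in the other genotype. The nearness to 0 is therefore not read as a result. The interaction, which is the difference of these changes, passed for Cdt1, Cdkn1a and Cdk6 and, with a negative sign, for Ccnd3, E2f5 and E2f6. It did not pass for Rbl2 (1.07, adjusted p = 0.0561), Cdkn2a (0.87, adjusted p = 0.078), E2f1, E2f2, E2f3, Ccnd2 or Myc. Past 1 in size, it was called positive in Cdk6, Cdkn1a and Rb1, 3 of 44 against 6.84% of all genes, and negative in E2f5, 1 of 44 against 6.04%.

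Position was read because stretches of neighbouring genes shift together between these genotypes. For each member the median log2 fold change of up to 50 neighbouring genes, 25 on each side, was taken. It lay beyond 0.4 in size on day 4 for 3 members, all on chromosome 8 of GRCm38. These were Mcm5 at 75.1 Mb (neighbour median 0.58, with 38 of 50 higher), Rbl2 at 91.1 Mb (0.42, 36 of 50) and E2f4 at 105.3 Mb (0.51, 38 of 50). On day 0 the neighbour medians of these 3 members were 0.58, 0.54 and 0.51. Of the 15653 genes with enough neighbours, 4.86% had such a median on day 4 and 4.48% on day 0. The rises of Mcm5, Rbl2 and E2f4 on day 4 exceeded their neighbours by 0.25, 0.73 and 0.68. On day 0 the members differed from their neighbours by 0.05 (Mcm5), -0.47 (Rbl2) and 0.17 (E2f4), so the mESC difference of Mcm5 was close to the median of its neighbours. The cause of the regional shift was not tested. Cdt1 lies farther along the same chromosome, at 122.6 Mb, and its neighbours had a median of -0.08. Rb1 (-0.09), Cdkn2a (0.08), Ccnd2 (-0.05), E2f5 (-0.06), Cdk6 (-0.02) and Mdm2 (-0.06) had neighbour medians near 0 on day 4, and Cdkn1a had 0.21. Ccne1 had 0.21 as well, with 33 of 50 neighbours higher, so its day 4 difference of 0.29 was close to the median of its neighbours. On day 0 the neighbours of Ccne1 had -0.07, beside its own -0.63. The neighbours of Ccnd1 had -0.29 on day 4, with 9 of 26 higher, beside its own -0.64.

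Other genes of the same pathways, taken from lists that hold no member, moved in part with them. Of 18 other replication origin factors, 12 rose and 1 fell on day 4, against the 21.5% and 18.6% of all genes given above, and the number that rose was 8 and 9 without CTCF-K20R EB library 1 and 2. Mtbp, an origin firing factor, rose most (1.05, adjusted p = 0.000426), Cdc7, the kinase that fires origins, rose by 0.70, and Wdhd1, a replisome protein, fell by 0.83. On day 0, 5 of the 18 rose and 1 fell, against 7.83% of all genes higher and 7.57% lower. The number that rose on day 0 was smaller with any CTCF-K20R library left out.

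The day 4 counts of the next lists also stand beside 21.5% higher and 18.6% lower among all genes. Of 39 S phase genes, 15 rose and 6 fell on day 4, with Hells, a chromatin remodeller (1.12), Ubr7 (1.1) and Wdr76 (0.93) at the top. Without CTCF-K20R EB library 1 or 2, 12 of them rose and 2 or 4 fell, and without either CTCF-K20R mESC library 13 rose and 2 fell. Of 47 G2/M genes, 13 rose and 15 fell, and the median was -0.07. The balance of this list turned with 1 library, since 11 rose and 7 fell without CTCF-K20R EB library 1, and 12 rose and 6 fell without library 2. Among genes of this list that passed with a mean of at least 100, G2e3 had the largest day 4 change (1.0, adjusted p = 0.000166). Bub1, a mitotic checkpoint kinase, had 3974 and 3980 in WT EBs and 7503 and 7420 in CTCF-K20R EBs (0.91, adjusted p = 6.9e-05) and was also higher in mESCs (0.54). Dlgap5 had the largest day 0 change and was lower (-0.89, adjusted p = 0.00484), and on day 4 it had 1898 and 1877 in WT EBs and 1295 and 1168 in CTCF-K20R EBs. Among 17 genes of the anaphase promoting complex and mitotic checkpoint, 3 rose and 6 fell, with Anapc1 at 0.73 and Mad1l1 at -0.58. With CTCF-K20R EB library 1 left out the counts were 2 and 3, and with library 2 left out they were 1 and 3. No test compared the lists with each other.

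Of 11 DREAM and MuvB subunits and mitotic transcription factors, the complex that binds CHR and E2F elements, 4 rose on day 4 and 7 did not pass. The number that rose was 2 and 1 without CTCF-K20R EB library 1 and 2, and 2 without either CTCF-K20R mESC library. Mybl2, the gene of B-MYB, had 18271 and 18264 in WT mESCs and 18418 and 18804 in CTCF-K20R mESCs, and 1670 and 1675 in WT EBs against 3384 and 3720 in CTCF-K20R EBs (log2 fold change 1.08, adjusted p = 0.000186). Of 28 other cyclins, CDKs and CDK inhibitors, 8 rose and 5 fell, and without either CTCF-K20R EB library 4 rose and 1 fell. Cdkn1c, the imprinted gene of the inhibitor p57, had 520.5 and 520.1 in WT EBs and 96.52 and 96.09 in CTCF-K20R EBs (-2.42, adjusted p = 0.00251), and it was lower in mESCs too (-1.89, adjusted p = 0.0162). Cdkn3, a CDK phosphatase, fell on day 4 as well (-1.23, adjusted p = 0.0194).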

How the data were processed

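RNA-seq was analysed for mESCs (day 0) and EBs (day 4) of both genotypes, with 2 libraries per group and 8 in all. The authors trimmed reads with Trim Galore, quantified them on mm10 with Salmon and normalized gene counts with DESeq2, per the submitters' processing notes. The authors deposited these normalized counts, a signal that need not be whole, for every gene in every library. The annotation release and the use of strand are not given in the sources used here.

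On the log2(value + 1) scale, limma 3.58.1 (under R 4.3.3) fitted group means with moderated variances that followed a trend over expression, for 15767 genes with a mean of at least 10. The WT pair of each day was averaged, which left 6 samples, 2 residual and 3.51 prior degrees of freedom, and p-values were two-sided and Benjamini-Hochberg adjusted over all genes tested. DEGs followed the study's thresholds. The fit was tested on simulated data.

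The members, the gene lists and the tests were chosen with earlier results of these data known. Named genes are all 44 members, Ctcf, the listed markers and, in each list and comparison, up to 3 genes with the largest change among those passing with a mean of at least 100. The values of Gadd45a and Perp on day 4 and of Dlgap5 in EBs stand beside values named by this rule. Positions, lengths and shared 31-base words came from GENCODE vM21 (GRCm38), and 15664 of the tested genes were found in it. Python 3.11.15 with pandas 2.3.3 and matplotlib 3.10.9 drew the plots. Over all genes, the deviations of same-numbered libraries of different groups correlated at -0.0308 to 0.0296, so numbers were not taken to pair libraries. Alternatives changed the pseudocount, filter, replicates, scaling, trend and thresholds.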

Additional observations from a re-analysis of the deposited data

Results flagged for a closer look

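The genotype effect differed between day 0 and day 4, by the interaction term of limma with Benjamini-Hochberg adjustment over 15767 genes, in 20 members. Values are the day 4 effect minus the day 0 effect on the log2 scale.

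Positive differences were 1.16 for Cdk6, 1.16 for Rb1, 1.07 for Cdkn1a, 0.91 for Ccne1, 0.86 for Mdm2, 0.76 for Cdt1, 0.54 for Wee1, 0.51 for E2f4, 0.36 for Cdc25a, 0.35 for Mcm2, 0.23 for Trp53 and 0.20 for Mcm5. Negative differences were -1.72 for E2f5, -0.86 for E2f6, -0.74 for Ccnd3, -0.45 for Mycn, -0.45 for Cdc25c, -0.28 for Cdk4, -0.28 for Cdk1 and -0.27 for Ccnb2. Ccne1 (-0.63 on day 0 and 0.29 on day 4), Ccnd3 (0.27 and -0.47) and E2f6 (0.40 and -0.47) passed with opposite signs on the days. With either CTCF-K20R EB library left out, 7 of the 20 calls remained, and with mESC library 1 or 2 of CTCF-K20R left out, 11 or 12 remained.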

How the results depend on the processing

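The WT error is unknown, since each WT pair counted as 1 sample, and 2 residual degrees of freedom make calls depend on the shared spread. A lone library left by leaving out its partner was assumed to vary like the other groups. Over 19 alternatives, 176 results of single members gave 3112 values: 2762 kept direction and side of the threshold, 247 lost the call, 101 gained it and 2 reversed. Both reversals came with quantile normalization, for Ccnb1 on day 4 (-0.13) and the interaction of Mcm5 (-0.04). A further 48 values changed sign where neither fit called the gene. The scalings moved the median of all genes by less than 0.1. Causes of these changes were not tested.

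With each replicate left out in turn, members higher on day 4 numbered 7 to 14 and lower 5 to 11, with 3 to 4 higher and 1 to 2 lower DEGs. On day 0 they numbered 0 to 6 and 0 to 4, with 0 higher and 0 to 1 lower DEGs. In the change of CTCF-K20R cells they numbered 8 to 10 and 18 to 25, with 3 to 4 higher and 1 to 3 lower DEGs, and in the interaction 5 to 13 and 2 to 8, with 1 to 4 positive DEGs and 1 negative. In WT cells 4 to 5 members were higher by over 1 and 8 lower.

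Without the mean-variance trend, 18 of the 25 day 4 calls were kept, and 7 members were lower on day 4. On day 0 that fit had 0 higher, 0 lower and 0 lower DEGs, and in the interaction 4 positive and 2 negative calls. At an adjusted p under 0.01, 9 were higher and 6 lower on day 4, 2 and 2 on day 0 with 0 lower DEGs, and 7 and 3 in the interaction. Without a filter, day 0 had 3 higher, 2 lower and 0 lower DEGs. With only the compared groups in the fit, day 0 had 2 higher, 1 lower and 0 lower DEGs. With all 8 libraries as separate samples, day 0 had 14 higher, 14 lower and 1 higher DEG, and the interaction 2 negative DEGs. A pseudocount of 5 and quantile normalization each gave 1 higher DEG on day 0, and the latter 5 positive DEGs in the interaction. With a mean of at least 50, the CTCF-K20R change had 1 lower DEG. With no minimum fold, DEGs equal the calls: 14 and 11 on day 4, 6 and 4 on day 0, 10 and 25 in the CTCF-K20R change and 12 and 8 in the interaction. Without Mcm5, Rbl2 and E2f4, the members whose neighbours shifted by over 0.4, which was chosen after seeing the data, 2 higher DEGs were left on day 4.

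Same-numbered libraries share only a number. With a replicate block, 13 members were higher and 11 lower on day 4, 6 and 4 on day 0, 10 and 23 in the CTCF-K20R change, and 13 and 7 in the interaction. With the block and all 8 libraries as separate samples, day 0 had 14 higher, 13 lower and 1 higher DEG, and the interaction 2 negative DEGs.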
